A study of Mus musculus with 2 samples.

Results

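The transcripts described here encode nuclear subunits of the mitochondrial respiratory chain, measured in whole mouse ureters at stage E18.5. They were chosen by gene name, and each gene is represented by its brightest probe. Names taken begin with Uqcr, with Atp5, or with Cox4 to Cox8 followed by a letter, without Cox8b. Names in Nduf were taken where a, b, c, s or v and then a digit follow, so a name such as Ndufab1 is left out. Sdha, Sdhb, Sdhc and Sdhd were taken by their full names. The rule took 84 of 31791 genes on the array, and 83 of them were among the 23400 genes that passed the filter on dim probes. The rule also takes 3 names that encode no subunit, since current RefSeq symbols for Cox4nb, Atp5s and Atp5sl are Emc8, Dmac2l and Dmac2. They were kept among the 84 and are counted apart below. The members lie on 19 chromosomes.

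RNA labelled cDKO came from embryos that were Tbx18(cre/+) and homozygous for a floxed allele both of Tbx2 (fl/fl) and of Tbx3 (fl/fl). The Tbx18 Cre allele is active in the mesenchyme around the ureteric epithelium. Control embryos were Tbx18(+/+), so without Cre, with at least 1 floxed allele of Tbx2 (fl/?) and likewise of Tbx3 (fl/?). The Tbx18 genotype differs together with those of Tbx2 and Tbx3, so their effects cannot be told apart. All embryos were of the NMRI strain. Total RNA of each genotype was hybridised together on 2 two-colour Agilent arrays, 1 with male RNA and the RNA labelled cDKO in red, and 1 with female RNA and that of the controls in red. An effect of sex, of dye or of replicate therefore cannot be told apart, and n = 2 ratios throughout. The number of embryos behind an RNA is not given in the sources used here, so the p-values speak only to variation between these arrays.

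The probes for the targeted genes gave higher signals in RNA labelled cDKO. Tbx2 had signals of 7068 (male) and 4977 (female) in RNA labelled cDKO, against 3637 and 3631 in control RNA, and Tbx3 had 20270 and 15298 against 11825 and 10716. The test described below called both higher, with log2 ratios of 0.74 (Tbx2) and 0.66 (Tbx3) (limma adjusted p = 0.0323 and 0.0347). From the processed signals neither was called (limma adjusted p = 0.276 and 0.262). Where these probes lie relative to the floxed segments is not given in the sources used here, so they are no check of the genotype labels. In each channel 72.1% to 81.6% of the 43020 spots of genes stood well above background.

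The respiratory chain passes electrons from NADH and succinate to oxygen and uses the energy to make ATP. Complex I oxidises NADH, complex II oxidises succinate, complex III passes electrons to cytochrome c, and complex IV reduces oxygen. Complex V, the ATP synthase, uses the proton gradient that complexes I, III and IV build. Most subunits are encoded in the nucleus, a few in mitochondrial DNA, and several complex IV subunits have tissue-specific isoforms, some of them muscle forms. The smooth muscle that propels urine is a main cell type of the late fetal ureter.

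The respiratory chain transcripts were abundant and, on the scale used here, mostly a little lower in RNA labelled cDKO. Of the 83 members tested, 60 had a log2 ratio of labelled cDKO over control below 0 on both arrays, 6 were above 0 on both, and 17 took opposite signs. That is 72.3% of members below 0 on both arrays, where 28.0% of all genes tested were below 0 on both and 31.7% above. The median log2 ratio of the members was -0.21, a 1.16-fold lower level, and the middle of the members ran from -0.33 to -0.093 (quartiles), while the median of all genes tested was 0.0044. The medians of the male and female arrays were both -0.22.

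Few of these differences passed the test on their own. With limma's moderated test of both arrays against 0 (Benjamini-Hochberg over all probes, threshold 0.05), 2 members were called lower and 0 higher, or 2.41% of members. The same test called 4.24% of all genes tested, 2.17% lower and 2.07% higher, so the share of called members is near the background and is no result about the chain. At an unadjusted p under 0.05 the test took 15 of the 83 members, against 15.8% of all genes.

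**Figure D1:**
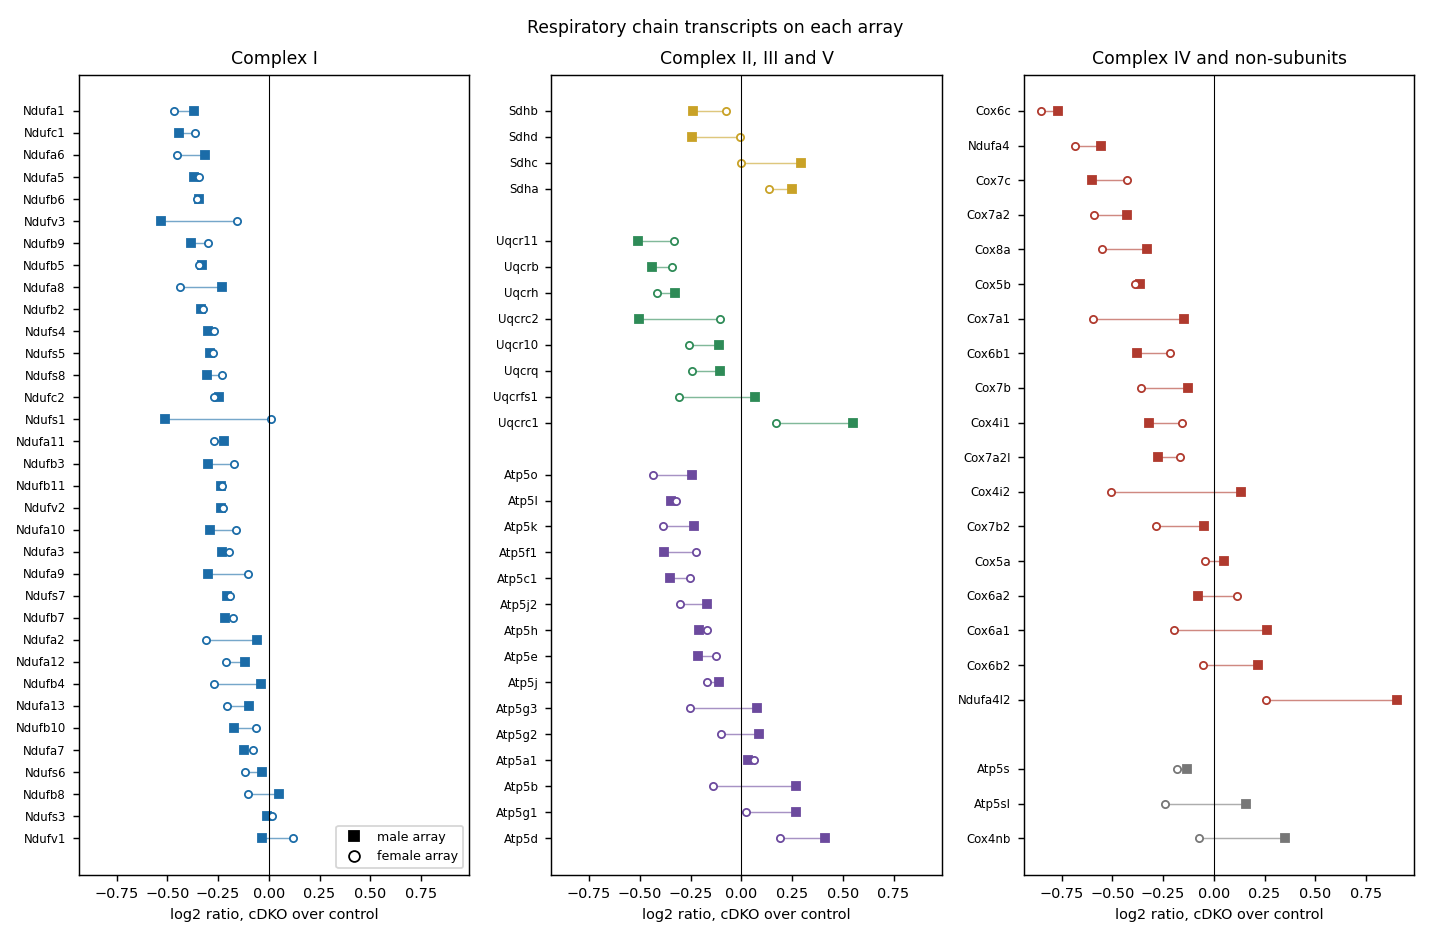
Log2 ratio of labelled cDKO over control (horizontal axis) of the members tested, 1 of which is not drawn, with the male array as filled squares and the female array as open circles, joined by a line. Rows are ordered by mean ratio within complex I (left), complexes II, III and V (middle), and complex IV with the 3 non-subunits (right). Most rows of complex I lie left of 0 with both symbols, and Cox6c and Ndufa4 head complex IV.

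The probes of the members were bright. Of the 83, 67 lay in the brightest 10% of all genes tested and 77 in the brightest 25%, and all 83 were well above background in all 4 RNAs, with 0 saturated. The median log2 ratio of the brightest 10% of all genes was -0.026, and 30.9% of those genes were below 0 on both arrays. The 23 members with several probes had 30 further probes in the test, and 30 of 30 gave the same sign as the brightest probe, with 0 called. Across the 83 members the 2 arrays correlated with Pearson's r = 0.63 and Spearman's rho = 0.55, against 0.48 and 0.33 across all genes. Across the brightest 10% of all genes the values were 0.63 and 0.39, so the Pearson correlation of the members was that of bright genes. These are descriptions across genes that share the same RNAs, and genes are not independent replicates.

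Whether a member is below 0 on both arrays depends on how the dyes are balanced along intensity within each array. Without the loess correction, with each array only centred on its median, the median of the members was 0.47 (male) and -0.78 (female), that is, higher for the red dye on both arrays. All genes then had medians of 0.22 and -0.024. The brightest genes, grouped as in the paragraph on probe brightness and holding most members, had 0.70 (male) and -0.54 (female) with the same centring. The median of the members was thus below that of the brightest genes on each array without loess as well. The mean over both arrays, in which a dye effect common to them cancels, was -0.15 for the members and 0.066 for all genes, so the members lay 0.22 below all genes in log2 terms. With loess correction the same distance was also 0.22. With centring alone, 2 members were below 0 on both arrays and 1 above, in place of 60 and 6.

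**Figure D2:**
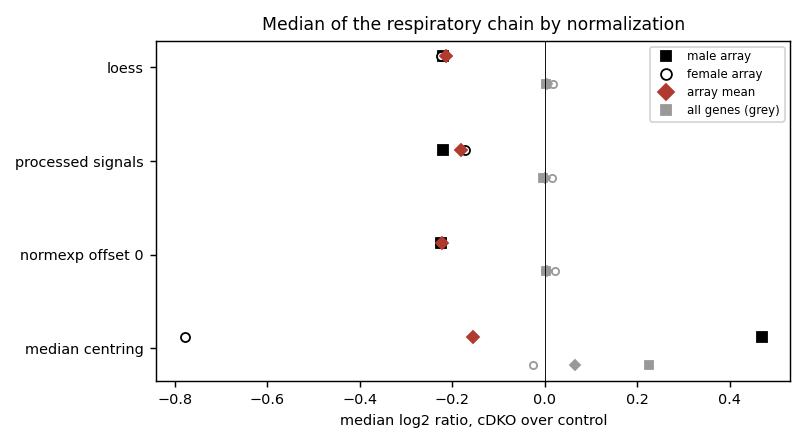
Median log2 ratio of labelled cDKO over control (horizontal axis) of the respiratory chain under 4 normalizations, with squares for the male array, open circles for the female array and diamonds for the mean of both. Grey symbols give the same medians over all genes tested. Under loess the member medians of both arrays sit at -0.22, and under median centring they part to 0.47 (male) and -0.78 (female) around a mean of -0.15.

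Complex I, the NADH dehydrogenase, was the most uniform of the complexes. Of its 35 members, 30 were below 0 on both arrays and 0 above on both, with a median log2 ratio of -0.23 and 0 members called by limma (5 at an unadjusted p under 0.05). The lowest was Ndufa1, a small accessory subunit of the membrane arm encoded on the X chromosome. Its signals were 40291 (male) and 28259 (female) in RNA labelled cDKO, against 51895 and 37463 in control RNA. Signals ran higher on the male array in both RNAs, so the groups overlap across arrays, but RNA labelled cDKO was lower on each, with a mean log2 ratio of -0.42 ± 0.071 (SD, n = 2; limma adjusted p = 0.220). The other X-linked subunit of this complex on the array, Ndufb11, had -0.23 on both arrays.

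Some subunits of complex I that carry its redox centres varied between arrays and others did not. Ndufs1, the largest iron-sulfur subunit, had -0.51 (male) and 0.010 (female) (mean -0.25, adjusted p = 0.570 by limma). Ndufv1, which binds NADH and FMN, had -0.035 and 0.12. Neither gene lies away from 0 by more than the spread between its arrays. The iron-sulfur subunits Ndufv2 (-0.23 male, -0.22 female), Ndufs7 (-0.21, -0.19) and Ndufs8 (-0.31, -0.23), named after their values were seen, were below 0 on both arrays with smaller spreads, and none was called.

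Complex II, the succinate dehydrogenase, is encoded wholly in the nucleus and had ratios on both sides of 0. Its 4 members had a median log2 ratio of 0.011, with 2 below 0 on both arrays and 1 above. Sdha, the flavoprotein that oxidises succinate, had signals of 16176 (male) and 12450 (female) in RNA labelled cDKO, against 13873 and 11093 in control RNA. It was higher on each array, though the groups overlap across them, at 0.19 ± 0.083 (SD, n = 2; limma adjusted p = 0.664). Sdhb, the iron-sulfur subunit, was the lowest of the complex at -0.16 ± 0.12 (adjusted p = 0.750 by limma).

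Complex III, the cytochrome bc1 complex, had 6 of 8 members below 0 on both arrays and a median of -0.24. Uqcr11, a small subunit, had signals of 36488 (male) and 30058 (female) in RNA labelled cDKO, against 49515 and 34908 in control RNA. The groups overlap across arrays, and its log2 ratio was -0.42 ± 0.12 (SD, n = 2; limma adjusted p = 0.217). Uqcrc1, the core protein 1 on the matrix side, stood opposite to it. Its signals were 14078 (male) and 10243 (female) in RNA labelled cDKO, against 9661 and 9364 in control RNA, so the groups did not overlap, and its ratio was 0.36 ± 0.27 (SD, n = 2; limma adjusted p = 0.337). The partner core protein gene, Uqcrc2, had -0.31, and the Rieske iron-sulfur protein gene Uqcrfs1 had 0.065 (male array) and -0.31 (female array).

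Complex IV, the cytochrome c oxidase, held the members farthest from 0 in both directions. Of its 18 members, 12 were below 0 on both arrays and 1 above, with a median of -0.24. Cox6c, a small transmembrane subunit, had signals of 23706 (male) and 18804 (female) in RNA labelled cDKO, against 40284 and 32992 in control RNA. The groups did not overlap. Its level fell by 0.81 ± 0.058 on the log2 scale, 1.75-fold (SD, n = 2; limma adjusted p = 0.00952), with -0.77 (male array) and -0.85 (female array). It was the only member at least 1.5-fold apart on both arrays. Its probe lies at chr15:35861751-35861810 (mm9).

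Ndufa4, named as a complex I subunit and since assigned to complex IV, was the other called member. Its signals were 41633 (male) and 28488 (female) in RNA labelled cDKO, against 64360 and 42924 in control RNA, again without overlap. It fell by 0.62 ± 0.088 on the log2 scale, 1.54-fold (SD, n = 2; limma adjusted p = 0.0480), and its probe lies at chr6:11850423-11850482 (mm9). This call sits at the threshold: limma's adjusted p was 0.0825 with a normexp offset of 0, 0.0616 without the filter on dim probes and 0.265 from the processed signals. For Cox6c limma's adjusted p was 0.155 from the processed signals, where 327 genes were called in place of 992. It was 0.678 under median centring and 0.330 in the authors' deposited table. The mean log2 ratio of Cox6c in these settings was -0.79, -0.76 and -0.79. Under median centring it had -0.084 (male array) and -1.43 (female array).

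The next members of complex IV did not pass the test. Cox7c, a small subunit named here after its values were seen, had signals of 30886 (male) and 23128 (female) in RNA labelled cDKO, against 48062 and 30306 in control RNA. Its ratio was -0.51 ± 0.12 (SD, n = 2; limma adjusted p = 0.117). Cox7a2 had the same mean ratio of -0.51, and Cox8a, the brightest member, had -0.44 (adjusted p = 0.119 and 0.196 by limma). In these 3 genes the groups overlap across arrays, and RNA labelled cDKO was lower on each array. Cox5a, which pairs with subunit IV on the matrix side, stood at 0.0019, with 0.048 (male array) and -0.044 (female array).

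**Figure D3:**
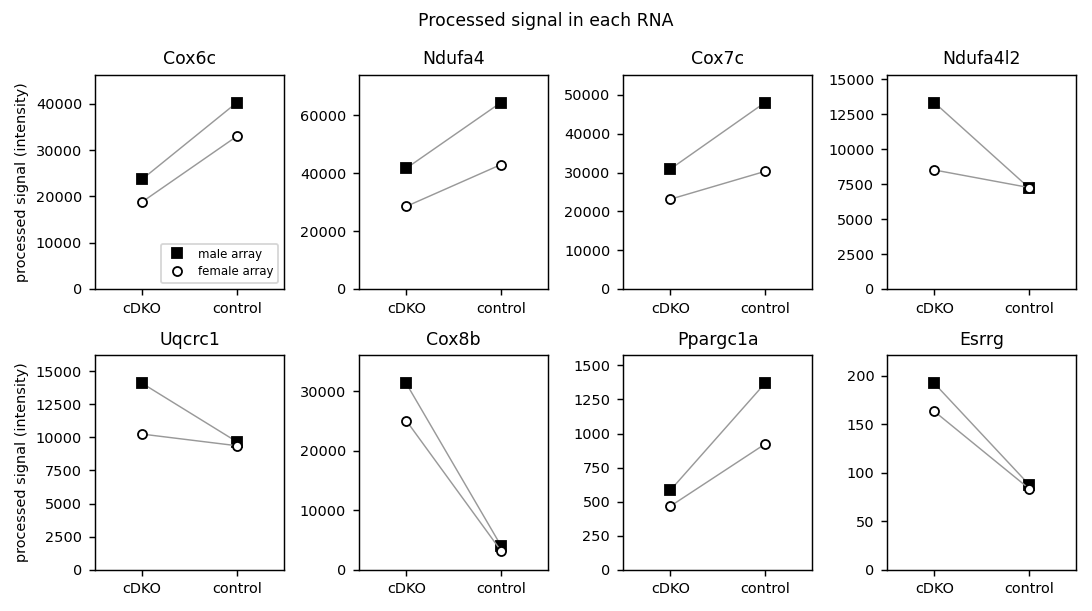
Processed signal (intensity, vertical axes from 0) in RNA labelled cDKO (left) and control RNA (right) for 5 members and for Cox8b, Ppargc1a and Esrrg, with squares for the male array and open circles for the female array, lines joining the RNAs of 1 array. Cox6c lies at 18804 to 23706 in RNA labelled cDKO and at 32992 to 40284 in control RNA, and Cox8b lies at 25075 to 31326 and at 3202 to 4057.

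Complex V, the ATP synthase, was divided. Of 15 members, 9 were below 0 on both arrays and 3 above, with a median of -0.17. The lowest was Atp5o, which encodes the stalk protein OSCP. Its signals were 8539 (male) and 6485 (female) in RNA labelled cDKO, against 10728 and 9050 in control RNA, without overlap, and its ratio was -0.34 ± 0.14 (SD, n = 2; limma adjusted p = 0.354). The highest was Atp5d, for the delta subunit of the central stalk, with 31374 and 23955 in RNA labelled cDKO against 21920 and 20894 in control RNA. These values did not overlap either, and the ratio was 0.30 ± 0.16 (SD, n = 2; limma adjusted p = 0.420).

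The catalytic head of the synthase had mean ratios near 0. Atp5a1 and Atp5b, for its alpha and beta subunits, had mean ratios of 0.047 and 0.066, with Atp5b at 0.27 (male array) and -0.14 (female array). The 3 genes for the identical mature c-ring protein had 0.15 (Atp5g1), -0.0060 (Atp5g2) and -0.087 (Atp5g3), and none was called.

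Grouped by role, the accessory subunits held most of the lower ratios. The 52 accessory subunits, which eukaryotes added around the enzymes, were set against a conserved group of 21 with bacterial counterparts. This grouping was made after the values were seen, so it is a description without a test. Of the accessory subunits, 48 of 52 were below 0 on both arrays, with a median log2 ratio of -0.25, and of the conserved subunits 8 of 21, with a median of -0.087. Under the processed signals the medians were -0.25 and -0.068, and under median centring the means over both arrays had medians of -0.22 and 0.0060. The probes of the accessory group had a median signal of 32674 and those of the conserved group one of 26501, and the part of brightness in the gap was not tested.

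Inside complexes I and V the shares below 0 on both arrays took the same order, though the medians in complex I were close. In complex I, 27 of 28 accessory subunits were below 0 on both arrays (median -0.24), against 3 of 7 conserved ones (median -0.20). In complex V all 6 accessory subunits were below 0 on both arrays (median -0.21), and of the 9 conserved ones 3 were below and 3 above (median -0.0060). In complex III, 6 of 7 accessory subunits were below 0 on both arrays (median -0.31). The other was Uqcrc1 (0.36), which is counted as accessory here although named a core protein. Uqcrfs1, the conserved subunit of complex III among the members taken by name, took opposite signs on the arrays. In complex IV, whose conserved subunits are encoded by mitochondrial DNA, 9 of 11 accessory subunits were below 0 on both arrays (median -0.38).

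**Figure D4:**
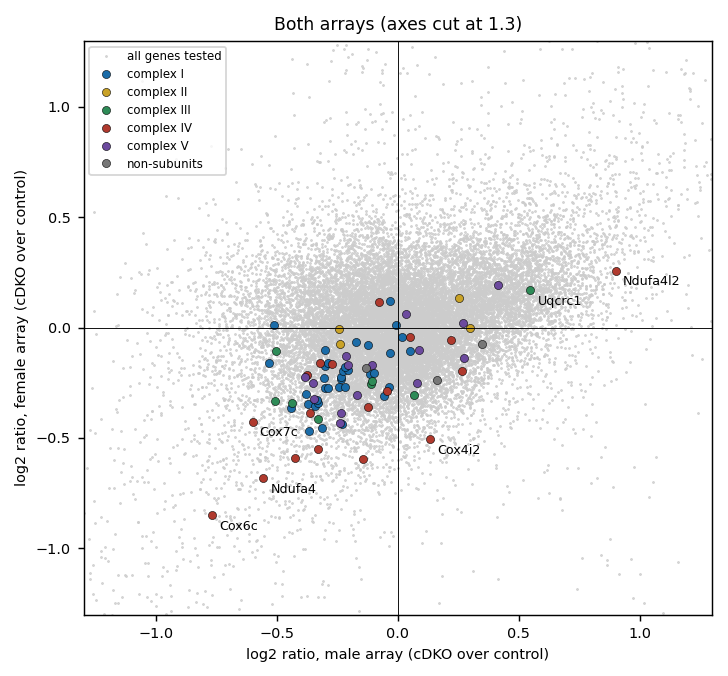
Log2 ratio of labelled cDKO over control on the male array (horizontal axis) against the female array (vertical axis), with members coloured by complex and all genes tested in grey. Axes end at 1.3 on either side, so genes beyond are not drawn. Most members lie to the lower left, where 60 of 83 are below 0 on both arrays, with Cox6c farthest out.

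Alternative isoforms, all of complex IV, had a median SD between arrays of 0.19 in log2 ratio, against 0.073 for accessory subunits. The median SD of all genes tested was 0.16, so the isoforms were near the background. Their probes were also dimmer, with a median signal of 1038 against 32674 for accessory subunits. The 7 isoform genes tested had a median of -0.17, with 3 below 0 on both arrays, 1 above and 0 called. Ndufa4l2, a paralogue of Ndufa4 known as a hypoxia-response gene, stood highest of all members. Its signals were 13334 (male) and 8509 (female) in RNA labelled cDKO, against 7229 and 7252 in control RNA, without overlap. The log2 ratio was 0.90 (male array) and 0.26 (female array), with a mean of 0.58 ± 0.45 (SD, n = 2; limma adjusted p = 0.115), while Ndufa4 itself fell. With an intensity trend in the variance, limma's adjusted p for Ndufa4l2 was 0.0185, and the count of called members was then 1 higher and 4 lower.

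Cox7a1, the isoform of heart and skeletal muscle, had signals of 1091 (male) and 706 (female) in RNA labelled cDKO, against 1276 and 1080 in control RNA. The groups overlap, its ratio was -0.37 ± 0.32 (SD, n = 2; limma adjusted p = 0.329), and that of Cox7a2l, which takes part in joining complexes III and IV, was -0.22. Cox4i1, the ubiquitous subunit IV, had -0.24, and its lung and low-oxygen isoform Cox4i2 had 0.13 (male array) and -0.51 (female array).

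For subunit VIa, Cox6a1 had 0.26 (male array) and -0.20 (female array), and the muscle isoform Cox6a2 was dim, with signals of 41.6 and 39.1 in RNA labelled cDKO against 51.2 and 36.0 in control RNA. For subunit VIb, Cox6b1 had -0.30 and Cox6b2, the testis isoform, 0.082. Cox7b had -0.24 and its testis isoform Cox7b2, the dimmest member tested, -0.17. None of these was called.

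Cox8c, a testis isoform, was the member not tested. Its signals were 4.72 (male) and 122 (female) in RNA labelled cDKO, against 2.49 and 126 in control RNA. It was well above background in both female RNAs and not in either male RNA, so no ratio was drawn.

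The 3 non-subunits taken in by name had no common direction. Cox4nb, which neighbours Cox4i1 on chromosome 8, had 0.35 (male array) and -0.072 (female array), Atp5sl had 0.16 and -0.24, and Atp5s had -0.13 and -0.18. Without them the median of the subunits was -0.22 and 59 were below 0 on both arrays.

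Transcripts from mitochondrial DNA, which encode some of the subunits of complexes I, III, IV and V, sat at a similar distance. The 12 measured had a median of -0.21, with 9 below 0 on both arrays, 0 above and 0 called by limma (1 at an unadjusted p under 0.05). The lowest was ND2, a complex I subunit named after its values were seen. Its signals were 52725 (male) and 42835 (female) in RNA labelled cDKO, against 77217 and 50098 in control RNA, which overlap across arrays, at a log2 ratio of -0.43. The files place several of these probes on chromosome 1 (mm9), and nuclear copies of mitochondrial DNA cannot be told apart from the mitochondrial transcripts.

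Other mitochondrial gene groups had medians below 0 as well, with 0 genes called in the next 3 lists by limma. Enzymes of the tricarboxylic acid cycle and of pyruvate entry, which supply the chain with electrons, had a median of -0.21 over 24 genes, with 17 below 0 on both arrays and 2 at an unadjusted p under 0.05. Assembly factors, which build the complexes and do not remain in them, had -0.15 over 41 genes, with 27 below 0 on both and 0 at that p. Mitochondrial ribosomal proteins had -0.12 over 78 genes, with 53 below 0 on both and 4 at that p. Cytosolic ribosomal proteins, also abundant housekeeping transcripts, had -0.069 over 126 genes, with 0.063 (male array) and -0.20 (female array) and 32 below 0 on both. In that list 1 gene, the pseudogene Rpl26-ps2, was called lower (log2 ratio -1.61 ± 0.91, SD, n = 2; limma adjusted p = 0.000898), with -2.25 (male) and -0.96 (female). Its adjusted p was 0.117 with the processed signals, 0.215 with robust eBayes and 0.427 in the authors' deposited table, and on an array such a copy cannot be told apart from its parent gene. With median centring the medians were -0.045 for the tricarboxylic acid cycle list, 0.012 for assembly factors and 0.0089 for mitochondrial ribosomal proteins, against 0.066 for all genes.

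**Figure D5:**
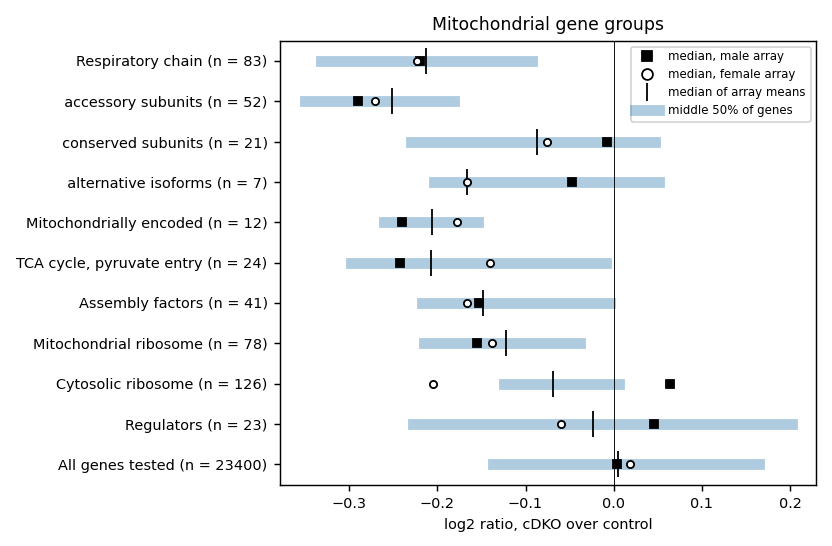
Median log2 ratio of labelled cDKO over control (horizontal axis) of the respiratory chain, its groups by role and related gene lists, with squares for the male array, open circles for the female array, vertical ticks for the array mean and shaded bars for the middle 50% of genes. The respiratory chain sits at -0.21, mitochondrially encoded genes at -0.21, and all 23400 genes at 0.0044.

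Among 23 regulators of mitochondrial gene expression, 1 was called lower and 1 higher by limma. Ppargc1a, which encodes the coactivator PGC-1alpha that drives respiratory genes, had signals of 583 (male) and 466 (female) in RNA labelled cDKO, against 1369 and 923 in control RNA. The groups did not overlap, and it fell by 1.05 ± 0.16 on the log2 scale (SD, n = 2; limma adjusted p = 0.00149). Esrrg, an orphan nuclear receptor that can act with PGC-1alpha, had 192 and 163 in RNA labelled cDKO against 87.8 and 83.7 in control RNA. It rose by 0.73 ± 0.059 (SD, n = 2; limma adjusted p = 0.0181). Tfam, which packages and transcribes mitochondrial DNA, had -0.23 (male array) and 0.096 (female array), and the list's median was -0.023. Both calls were lost under the processed signals, with limma's adjusted p at 0.0725 for Ppargc1a and 0.0786 for Esrrg, and also under median centring and in the authors' deposited table.

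Among 13 tested isoforms and partners of the chain that the naming rule leaves out, 1 was called higher and 1 lower. Cox8b, the heart and skeletal muscle isoform of subunit VIII, had signals of 31326 (male) and 25075 (female) in RNA labelled cDKO, against 4057 and 3202 in control RNA. It rose 7.61-fold, by 2.93 ± 0.085 on the log2 scale (SD, n = 2; limma adjusted p = 7.46e-08), where the ubiquitous Cox8a had -0.44. Higd1b, a relative of complex IV assembly proteins, fell by 0.84 ± 0.29 (SD, n = 2; limma adjusted p = 0.010). That call was lost with the processed signals (0.180), median centring (0.822) and the authors' deposited table (0.411). Cycs, the cytochrome c that links complexes III and IV, had -0.41 (male array) and -0.37 (female array), with a mean of -0.39 (limma adjusted p = 0.258).

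Markers of smooth muscle and of kidney tubule differed between the genotype labels by more than the chain did, with median log2 ratios of -2.41 and 1.25. In bulk RNA, fewer cells of a type and less RNA per cell cannot be told apart. Of 10 smooth muscle markers, 9 were called lower by limma, and all 10 were below 0 on both arrays. Their summed signals were 117390 (male) and 72469 (female) in RNA labelled cDKO, against 613290 and 373740 in control RNA. Of 10 striated muscle markers, 4 were called lower by limma (Myh6, Ckm, Tnnt2 and Actc1), 5 were below 0 on both arrays and 2 above, and the median log2 ratio was -0.25. Their sums, which a few bright members can carry, were 23036 and 18133 in RNA labelled cDKO against 170220 and 124140 in control RNA. Their part in the lower ratios of the chain was not tested.

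Kidney tubule markers ran the other way. Of the 7 kidney tubule markers tested, 6 were called higher by limma, with summed signals of 5803 (male) and 3202 (female) in RNA labelled cDKO against 1057 and 1708 in control RNA. Slc12a3 was above background in none of the RNAs. Of 7 brown adipocyte markers tested, Ppargc1a and Cidea were called lower, the median was -0.031, the value of Ucp1, Elovl3 was above background nowhere, and the sums were 44495 and 30040 in RNA labelled cDKO against 51382 and 39402 in control RNA. Of 10 urothelial markers 0 were called by limma (3 at an unadjusted p under 0.05), with a median of 0.21 and sums of 446610 and 361410 in RNA labelled cDKO against 361260 and 296490 in control RNA, and all 10 were above background in all 4 RNAs. Of 6 liver transcripts 0 were called (3 at an unadjusted p under 0.05), with medians of -0.51 (male) and 2.69 (female), opposite signs on the arrays for all 6, and sums of 21099 and 79236 in RNA labelled cDKO against 32076 and 20914 in control RNA. Of 6 red blood cell markers 1 was called higher by limma (4 at an unadjusted p under 0.05). All 6 were above 0 on both arrays, with a median of 0.46. Of 5 markers of ureteric mesenchyme 1 was called higher, Tbx18, and the median was 0.33. Embryos labelled cDKO carry Cre at the Tbx18 locus and controls do not, so the ratio of Tbx18 cannot be read as that of a cell type marker alone. The part of any of these in the ratios of the chain was not tested.

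Promoter windows of the members held the letters of NRF1 and YY1, factors known to bind respiratory gene promoters, in a larger share than promoters at large. RefSeq windows of 300 bases (GRCm38.p6), from 250 before to 50 after the start, were found for 68 of the 84 members, as 74 windows. The site of nuclear respiratory factor 1 (NRF1), GCGC followed by any base and TGCGC, stood on either strand in 18 of 74 windows (24.3%), against 4.60% of all 32851 windows and 7.97% of the 16023 windows of genes tested. The letters AAGATGGC of YY1 stood in 12 (16.2%), against 2.75% and 3.62%. The GABPA letters CCGGAAGT were in 5 (6.76%), against 3.89% and 6.41%, and the letters TCAAGGTCA of oestrogen-related receptors in 2 (2.70%), against 0.423% and 0.275%. The T-box letters AGGTGTGA stood in 0 of 74, against 1.28% and 1.02%, which says only that these letters are not in these windows. No member window had overlapping matches of different motifs.

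The motif shares were also counted by ratio, without a test. NRF1 letters stood in the windows of 12 of 53 members below 0 on both arrays and of 5 of 15 other members, and YY1 letters in 9 of 53 and 2 of 15. The 250 bases before the start are shown for the called member with a window, for another low member of complex IV, and for 1 low and 1 high member with NRF1 letters, all on the minus strand of GRCm38.p6 and read 5′ to 3′, with matches in capitals. They are Ndufa4 (chr6:11907451-11907700), Cox7c (chr13:86046796-86047045), Ndufa8 (chr2:36049339-36049588), an accessory subunit of complex I with a mean log2 ratio of -0.34, and Sdha (chr13:74350241-74350490), with 0.19.
Ndufa4: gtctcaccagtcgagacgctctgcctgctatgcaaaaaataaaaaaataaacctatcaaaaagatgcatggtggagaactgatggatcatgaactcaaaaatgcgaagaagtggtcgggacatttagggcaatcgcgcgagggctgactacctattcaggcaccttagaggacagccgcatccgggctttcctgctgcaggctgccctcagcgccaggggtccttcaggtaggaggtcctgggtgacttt
Cox7c: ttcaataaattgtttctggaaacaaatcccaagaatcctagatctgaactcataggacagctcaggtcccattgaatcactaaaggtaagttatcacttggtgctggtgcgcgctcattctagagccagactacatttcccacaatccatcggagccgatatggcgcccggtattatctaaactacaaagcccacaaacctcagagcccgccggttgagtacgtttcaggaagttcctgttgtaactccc
Ndufa8: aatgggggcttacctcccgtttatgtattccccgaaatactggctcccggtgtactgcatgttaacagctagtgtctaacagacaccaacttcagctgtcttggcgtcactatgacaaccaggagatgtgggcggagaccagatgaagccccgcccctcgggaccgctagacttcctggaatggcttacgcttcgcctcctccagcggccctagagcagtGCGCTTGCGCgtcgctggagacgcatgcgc
Sdha: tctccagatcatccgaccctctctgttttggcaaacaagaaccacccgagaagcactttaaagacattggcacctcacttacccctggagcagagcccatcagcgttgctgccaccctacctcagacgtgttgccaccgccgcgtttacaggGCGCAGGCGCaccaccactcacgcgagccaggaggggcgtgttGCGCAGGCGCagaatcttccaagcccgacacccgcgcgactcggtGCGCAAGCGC
Ndufa4 and Cox7c held none of the 5 motifs in these letters, Ndufa8 held 1 NRF1 match that begins 30 bases before the start, and Sdha held 3, which begin 98, 55 and 10 bases before it. A match is a run of letters and not evidence of binding.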

How the data were processed

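Ureter RNA of embryos labelled cDKO and of controls was measured on 2 two-colour Agilent arrays on 1 slide in 1 scan. Per the file headers, Agilent Feature Extraction 10.7.3.1 wrote mean spot and local background intensity, a background-subtracted and dye-normalized processed signal (intensity), a log10 ratio of red over green, which was not used, and 0 or 1 flags; probe coordinates are on mm9. The authors' deposited value table holds a score of unstated scale. Its values matched a signed fold of the processed signals, labelled cDKO over control, within 0.01 log2 for 94.4% (male) and 98.9% (female) of the spots well above background in both channels. Over all spots the correlation with the processed log2 ratio was lower, at 0.74 (male) and 0.68 (female). The median of each column was 1, which is no change on a signed fold scale.

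Of 44397 spots, 43020 were gene spots of 39429 probes. Intensities were corrected with normexp (offset 50) and loess within arrays (R 4.3.3 with limma 3.58.1), giving control spots and 272 and 226 outlier spots weight 0. Spots of a probe were averaged. The 29339 probes well above background in one genotype on both arrays, on at least 0.5 of their spots, were kept, and the brightest stood for its gene. Log2 ratios are given as labelled cDKO over control, and their mean was tested against 0 (lmFit, eBayes, two-sided, Benjamini-Hochberg), with 1 residual and 12.8 prior degrees of freedom, so p-values of single genes draw mainly on the variance that probes share. The number of arrays limits the precision. The fit was tested on simulated data.

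The naming rule, the gene lists, the markers and the alternatives were chosen with earlier results of these data known. Named are the called members with 1 direction, the highest and lowest of each complex, a set of catalytic subunits, the isoform families, up to 4 called genes of each related list, and Cox8b, Cycs, Ppargc1a and Tfam, and 1 member that this rule takes is not reported here. Symbols came from the files, and 83 of 84 member accessions matched RefSeq (GRCm38.p6), with 4 symbols changed. Alternatives were other background and normalization settings, filters, variance models, thresholds, the deposited table and each array alone.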

Additional observations from a re-analysis of the deposited data

Results flagged for a closer look

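In 5 members the arrays gave opposite directions with a gap of at least 0.4 in log2 ratio of labelled cDKO over control. The difference between arrays was not tested, and with 1 array each, sex, dye orientation and replicate cannot be told apart. Ndufs1, an iron-sulfur subunit of complex I, had -0.51 (male array) and 0.010 (female array). Cox4i2, the low-oxygen isoform of subunit IV, had 0.13 and -0.51. Cox6a1, a ubiquitous complex IV subunit, had 0.26 and -0.20, and Atp5b, the catalytic beta subunit of the ATP synthase, had 0.27 and -0.14. Cox4nb, which is no subunit, had 0.35 and -0.072.

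Cox8c, the testis isoform of subunit VIII, gave signal above background outside the main comparison. In female RNA it had signals of 122 in RNA labelled cDKO and 126 in control RNA, while neither male RNA was well above background.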

How the results depend on the processing

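The median of the members stayed below 0 under every alternative run. It was -0.18 with 0 called lower both for the processed signals and for the deposited value table, in which limma called 0 of 23400 genes (2420 at an unadjusted p under 0.05). It was -0.22 with 1 called for offset 0, -0.21 with 1 called without the filter, -0.15 with 0 called under median centring, where 1 member was above and 2 below 0 on both arrays, and -0.22 for annotated subunits alone, a setting chosen after seeing the data. The intensity trend called 1 higher and 4 lower (Cox7a2 at adjusted p = 0.0276), and a threshold of 0.01 left 1 lower and ended the calls of Ndufa4, Esrrg and Higd1b. Without replicate 1 or 2 the median ranged from -0.22333 to -0.22021, with no residual degrees of freedom for calls. The mean of a gene's probes has no test here. Over all genes, calls were 485 higher and 507 lower, 127 and 200 for processed signals, 159 and 157 under centring, and 864 and 649 with the trend. Limma's adjusted p for Cox6c was 0.155 for processed signals, 0.678 under centring and 0.330 in the deposited table, and for Ndufa4 0.265, 1.00 and 0.390. Cox8b lost its call only in the deposited table (0.118), Ppargc1a, Esrrg and Higd1b also with processed signals and centring, and Rpl26-ps2 with processed signals, robust eBayes and the deposited table.

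Signs were followed for the reported genes named by rule and for the related lists. Under median centring they turned for Uqcrfs1 (0.011), Cox6a2 (-0.047), Tfam (0.13) and the medians of assembly factors (0.012), regulators (0.13) and mitochondrial ribosomal proteins (0.0089). With processed signals and the deposited table they turned for Atp5g2 (0.0044) and Cox6a2 (-0.089), and with offset 0 for Cox5a (-0.00041). Other members near 0 turned as well, among them Sdhd (0.0060), Ndufb8 (0.028) and Atp5sl (0.16) under median centring. Ndufb8 also turned with processed signals (0.00015). The cause was not tested. Both RNAs of an array enter as 1 ratio, so the test of the ratios against 0 pairs them by array. Members dim in these RNAs, such as Cox7b2 and Cox6a2, have ratios limited by signal over background.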

Other observations

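Of the partners of the chain outside the naming rule, the mitochondrial carriers Ucp2 and Ucp3 had mean log2 ratios of labelled cDKO over control of 0.52 and 0.56, with 0.83 and 0.96 on the male array and 0.22 and 0.16 on the female array (limma adjusted p = 0.154 and 0.155). Both were named after their values were seen. Brp44l, a pyruvate carrier subunit also named after its values were seen, had -0.68 (male array) and -0.42 (female array) (limma adjusted p = 0.0927).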
